A study of Homo sapiens with 12 samples.

Results

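The long intergenic noncoding RNAs (lincRNAs) described here were the gene symbols of the count table that start with LINC and digits, hold no hyphen and had a mean level of at least 1 CPM (each count divided by its library total and scaled by 1000000) over the 12 libraries. The rule took 129 genes out of 1737 symbols of that form, in a table of 28278 symbols of which 13835 reached the same mean. A further 746 LINC symbols had no count in any library. The members were thus chosen by their mean level over all libraries, which is given only as a description. Because the mean ran over all 4 groups, a gene could pass through a single high group: 89 of the 129 had a group mean of at least 1 CPM in all 4 groups, 22 in 3 groups, 17 in 2 groups and 1 in 1 group. Just above the threshold were LINC01569, LINC01152 and LINC00653 at 1.07, 1.06 and 1.05 CPM, and just below it were LINC01852, LINC01534 and LINC01905 at 0.989, 0.955 and 0.952 CPM.

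The RNA came from motor neuron cultures made from the wild-type human embryonic stem cell line WA09-Islet1-GFP, which makes green fluorescent protein (GFP) wherever the motor neuron transcription factor Islet1 is on. Cultures were given the organochlorine pesticide cis-chlordane, at 10 µM by the sample labels, or the solvent DMSO alone for 16 hours, and cells were then sorted by GFP signal. This made 4 groups of 3 libraries each: control GFP-positive, treated GFP-positive, control GFP-negative and treated GFP-negative. All 12 libraries share the line and its genotype, so the p-values measure the spread between thawed cultures of 1 line. The methods text names a higher concentration than the labels do, and the titles of the treated libraries also open with the word untreated, so groups were read from the treatment field of the labels.

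LincRNAs are transcribed from the stretches between protein-coding genes, are spliced and often polyadenylated like messenger RNAs, and tend to be scarce and restricted to few cell types. Some act on a gene beside them, some are the primary transcripts from which microRNAs are cut, and most have no settled function. In the developing nervous system the best known are microRNA hosts such as the miR-9 and miR-124 transcripts.

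Of the 129 members, 121 were found in GENCODE 44 on GRCh38, 108 by symbol and 13 by an older symbol, and the other 8 in RefSeq alone. Their summed exons ranged from 160 to 28876 bases, with a median of 4164. By position 77 were intergenic, 21 overlapped a protein-coding gene, 16 started within 2 kb of an opposite-strand protein-coding start (divergent pairs), and 7 lay within 5 kb downstream of a protein-coding gene on the same strand. GENCODE 44 lists 117 as long noncoding RNAs, 2 as protein-coding, 1 as a transcribed unitary and 1 as a transcribed unprocessed pseudogene. The name lincRNA is thus used here by symbol, for all 129 members. Exons of 51 members overlapped exons of another gene on the opposite strand and those of 24 did so on the same strand. The library kit kept strand, but whether the counting used it is not given in the sources used here, so reads of those members and their overlapping genes may be mixed. For 8 members at least 50% of the exonic bases (or of the gene span where GENCODE had no entry) matched another locus at 98% identity or more, namely LINC00115, LINC00622, LINC00623, LINC00863, LINC00869, LINC00957, LINC01145 and LINC01719, and their counts are uncertain.

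Promoter sequences of 92 members were in the RefSeq table for GRCh38.p14, each running from 250 bases before the start to 50 after it. The 4 printed next were picked from members described below, LINC00346, LINC00261 and LINC00682 for a motif match. Capitals mark letters of a motif found by search on both strands: TGACGTGG, an unfolded protein response element (UPRE), in LINC00346 and LINC00261, and TAATTA, the core that homeodomain factors such as ISL1 recognise, in LINC00682. LINC02106 had no match and is shown as the member that differed most between sort fractions.
LINC00346 (chr13:110870259-110870558, minus strand): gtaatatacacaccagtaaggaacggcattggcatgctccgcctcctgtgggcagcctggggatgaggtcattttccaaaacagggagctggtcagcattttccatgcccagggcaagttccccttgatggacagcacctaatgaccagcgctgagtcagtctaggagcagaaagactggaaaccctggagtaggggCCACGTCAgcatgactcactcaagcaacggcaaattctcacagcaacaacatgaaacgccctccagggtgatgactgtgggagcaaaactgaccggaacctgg
LINC00261 (chr20:22578593-22578892, minus strand): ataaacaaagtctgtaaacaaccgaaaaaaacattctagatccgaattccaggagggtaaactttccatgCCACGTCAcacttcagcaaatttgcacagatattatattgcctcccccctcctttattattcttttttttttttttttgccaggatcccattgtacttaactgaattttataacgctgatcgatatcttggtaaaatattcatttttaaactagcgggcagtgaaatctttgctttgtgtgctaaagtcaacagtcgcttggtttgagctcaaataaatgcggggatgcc
LINC00682 (chr4:41882562-41882861, minus strand): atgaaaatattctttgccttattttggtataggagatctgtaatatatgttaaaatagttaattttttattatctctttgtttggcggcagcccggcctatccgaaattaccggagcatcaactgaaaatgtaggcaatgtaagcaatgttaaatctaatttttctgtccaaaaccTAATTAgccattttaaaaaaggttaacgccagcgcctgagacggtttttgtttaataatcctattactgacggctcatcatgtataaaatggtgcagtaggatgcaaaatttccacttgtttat
LINC02106 (chr5:50970138-50970437, minus strand): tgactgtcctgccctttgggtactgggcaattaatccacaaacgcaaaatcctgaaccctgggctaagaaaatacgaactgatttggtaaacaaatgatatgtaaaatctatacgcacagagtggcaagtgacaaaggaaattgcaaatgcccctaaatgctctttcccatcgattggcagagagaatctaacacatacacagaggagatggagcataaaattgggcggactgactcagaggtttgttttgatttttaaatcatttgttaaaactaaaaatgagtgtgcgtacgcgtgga

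The UPRE letters stood 53 bases before the start of LINC00346 and 180 bases before that of LINC00261, both in the reverse complement. These were the 2 matches among 92 member promoters (2.17%), against 0.795% of all 27305 promoters in the table. TAATTA was found in 7 member promoters (7.61%, against 4.98% of all) and the cyclic AMP response element TGACGTCA in 3 (3.26%, against 1.98%). TGATGNAA, the core bound by the stress factor ATF4, was in 1 (1.09%, against 3.67%), that of LINC01854, which fell with treatment in both fractions. The endoplasmic reticulum stress element was in none of them and in 0.0806% of all. A match describes the letters and says nothing of a factor being bound.

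Library totals ran from 23414935 to 38347050 counts, so that 3 counts corresponded to at most 0.128 CPM. Levels from here on are CPM with library totals adjusted by TMM factors. ISL1 was at 66.1, 62.4 and 68.6 CPM in the control GFP-positive libraries and at 2.50, 2.41 and 2.80 CPM in the control GFP-negative libraries, and at 8.01, 15.3 and 12.6 CPM in the treated GFP-positive libraries. All 6 motor neuron markers on the list (ISL1, MNX1, SLC18A3, CHAT, SLC5A7 and PRPH) were higher in GFP-positive cells of control cultures, and all 6 fell with cis-chlordane in GFP-positive cells, their summed level going from 1708 to 2307 CPM in control libraries to 536 to 859 CPM in treated ones. In GFP-negative cells 4 of the 6 fell, and the sum went from 268 to 294 CPM to 96.7 to 116 CPM. The 4 proliferation markers summed to 55.5 to 85.0 CPM in control GFP-positive and 427 to 555 CPM in control GFP-negative libraries, and to 30.0 to 33.9 and 138 to 182 CPM after treatment. The 8 neural progenitor markers summed to 3197 to 3539 CPM in control GFP-positive and 6009 to 7941 CPM in control GFP-negative libraries, and to 2516 to 3334 and 7267 to 8327 CPM after treatment, with HES5 at 0 in the treated GFP-positive libraries. Gene by gene the picture differed from the sums. Of 7 tested with treatment, 1 rose and 1 fell in GFP-positive cells, and 0 rose and 3 fell in GFP-negative cells (median log2 fold change -0.71). Between fractions, 5 of 7 were lower in GFP-positive cells of control cultures, and 1 was higher and 3 lower in treated cultures. All 11 listed PERK and ATF4 stress genes rose in both fractions. Markers therefore moved with both comparisons, and their part in the lincRNA differences was not tested. Fewer cells of a type and less RNA per cell cannot be told apart in sorted bulk samples such as these.

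LincRNAs made up a larger share of the counts in GFP-positive cells. The 129 members held 0.143 to 0.171% of counts in control GFP-positive libraries and 0.110 to 0.114% in control GFP-negative libraries, and 0.149 to 0.162% and 0.0921 to 0.111% after treatment, with no overlap between fractions. After adjustment the members summed to 1727, 1590 and 1663 CPM in control GFP-positive, 1457, 1470 and 1365 in treated GFP-positive, 1156, 1130 and 1064 in control GFP-negative and 1116, 1119 and 1030 in treated GFP-negative libraries. Per kb of exon in GENCODE 44, with CPM taken over library totals without TMM factors, the mean levels spanned from 0.0983 to 603 CPM. The top value belongs to LINC00674, for which GENCODE 44 lists only 160 bases of exon. Below it came LINC02381 at 20.7 CPM per kb, followed by LINC01003 at 13.1, LINC00641 at 12.4, LINC02525 at 12.3, LINC02506 at 11.4, LINC01578 at 10.8 and LINC01963 at 9.74.

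The first question was which lincRNAs mark a sort fraction. In control cultures 23 of 129 members were higher in GFP-positive cells and 10 were lower, with a call needing an adjusted p under 0.05 (edgeR quasi-likelihood test, Benjamini-Hochberg over all genes tested) and a fold change of at least 2. Of all 15404 genes tested, 7.47% were called higher and 15.3% lower. In treated cultures 22 members were higher and 10 lower, where 10% and 13.7% of all 15416 genes were. Among the genes with a mean of at least 1 CPM, which the members also had to reach, 7.53% were higher and 14.6% lower in control cultures, and 9.65% and 13.1% in treated cultures. Scaled by library size alone, treated cultures gave 33 members higher and 9 lower, and 2230 genes higher and 1770 lower in all in place of 1541 and 2117. The median log2 fold change of the members was 0.46 in control and 0.52 in treated cultures, against -0.02 and 0.05 over all genes tested. In control cultures every GFP-positive library lay above every GFP-negative library for 66 members (29.1% of all genes) and below for 13 (24.1% of all genes). Over both conditions 14 members were higher in GFP-positive cells each time, 6 were lower each time, 25 were called in a single condition and 84 in neither. Of the genes tested in both conditions, 4.84% of all 14872 were higher each time and 10% lower each time. With the culture as a replicate block, 10 member calls crossed a threshold. LINC00304 and LINC01145 were among them, with log2 fold changes in control cultures of 1.06 (adjusted p = 0.012) and 1.04 (adjusted p = 0.013) with the block and 0.97 and 0.98 without it. LINC01023, LINC01979 and LINC02202 in control and LINC00342, LINC01355 and LINC01530 in treated cultures also gained a call. LINC02361 in control and LINC00599 in treated cultures lost theirs. Leaving out each library in turn kept 17 of the 33 member calls in control cultures and 23 of the 32 in treated cultures in every fit. Values after ± are standard errors of log2 fold changes.

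LINC02106, a spliced transcript at chr5:50969217-50970167 on the minus strand, had the largest difference of the 129 in each condition. The protein-coding genes on either side of it are PARP8, 123 kb away, and ISL1, 413 kb away. Its level was 4.40, 4.20 and 5.02 CPM in control GFP-positive and 0.296, 0.117 and 0.0400 CPM in control GFP-negative libraries, a log2 fold change of 4.74 ± 0.50 (SE, adjusted p = 5.3e-05). Treated GFP-positive libraries held 1.59, 1.69 and 1.35 CPM and treated GFP-negative libraries 0.130, 0.109 and 0.0354 CPM, a log2 fold change of 4.07 ± 0.50 (SE, adjusted p = 3.4e-05). Every GFP-positive library stood above every GFP-negative one, and the GFP-negative values rest on 14 counts in the 3 control and 7 counts in the 3 treated libraries. It was the only member of the 129 past an 8-fold difference in both conditions.

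LINC00682 (chr4:41872741-41882955) was the most abundant of the 4 members that were higher in GFP-positive cells under both conditions and fell with treatment in both fractions. Its level was 59.3, 57.0 and 56.5 CPM in control GFP-positive and 16.8, 17.2 and 15.5 CPM in control GFP-negative libraries, and the fold between fractions was 1.70 ± 0.15 (SE, adjusted p = 1.7e-05) on the log2 scale. After treatment it was 15.0, 17.8 and 12.1 CPM in GFP-positive and 3.63, 4.65 and 4.39 CPM in GFP-negative cells, so the fractions still did not overlap (1.85 ± 0.22, adjusted p = 2.6e-05). The nearest protein-coding gene is TMEM33, 52.2 kb away.

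LINC01201 on the X chromosome (chrX:130981590-131058146) starts 200 bases from ARHGAP36, a gene of the motor neuron lineage, on the opposite strand. The lincRNA stood at 11.0, 9.13 and 8.48 CPM in control GFP-positive against 3.02, 1.85 and 1.36 CPM in control GFP-negative libraries, a log2 fold change of 2.09 ± 0.31 (SE, adjusted p = 4.7e-04). ARHGAP36 differed in the same direction by 3.27 ± 0.15 (SE, adjusted p = 8.7e-07). LINC01854 (chr2:129242173-129273848), 706 kb from the nearest protein-coding gene, RAB6C, was at 4.62, 8.55 and 7.17 CPM in control GFP-positive and 0.854, 1.50 and 1.04 CPM in control GFP-negative libraries (2.47 ± 0.34, adjusted p = 3.0e-04). For both lincRNAs the lowest control GFP-positive library was above the highest GFP-negative one.

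LINC01694 was 2.34 higher in GFP-positive cells of control and 1.92 of treated cultures on the log2 scale, LINC01088 2.20 and 2.58, LINC01801 2.13 and 2.54, and LINC00693 1.69 and 2.78. LINC02506, one of the most abundant members per kb, was at 56.5, 61.2 and 63.7 CPM in control GFP-positive and 15.1, 20.1 and 20.5 CPM in control GFP-negative libraries (1.59 ± 0.18, adjusted p = 7.7e-05). In treated cultures its fold between fractions was 1.06 ± 0.22 (SE, adjusted p = 0.0016), which fell to 0.84 without replicate 2 of the treated GFP-positive group and to 0.92 without replicate 3 of the treated GFP-negative group. The remaining members higher in GFP-positive cells in both conditions were LINC00237, LINC00648, LINC00957, LINC01128 and LINC02223, with log2 fold changes of 1.03 to 1.68. The control call of LINC02223 was lost without GFP-positive replicate 1 or 2 or GFP-negative replicate 2 (adjusted p up to 0.080). Without GFP-negative replicate 1 the control log2 fold change was 0.87 for LINC00648 and 1.00, just under the minimum, for LINC01128. Their treated calls fell below 2-fold without GFP-positive replicate 1, and also without GFP-positive replicate 2 or GFP-negative replicate 3 for LINC00648 (down to 0.86) and without GFP-positive replicate 3 for LINC01128 (down to 0.98). LINC00957 belongs to the genes with near copies elsewhere. LINC02175 was called in treated cultures only (1.89 ± 0.51, adjusted p = 0.0081), a call lost without replicate 1 of the treated GFP-positive group (adjusted p = 0.064), and its difference between conditions did not pass the interaction test.

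**Figure D1:**
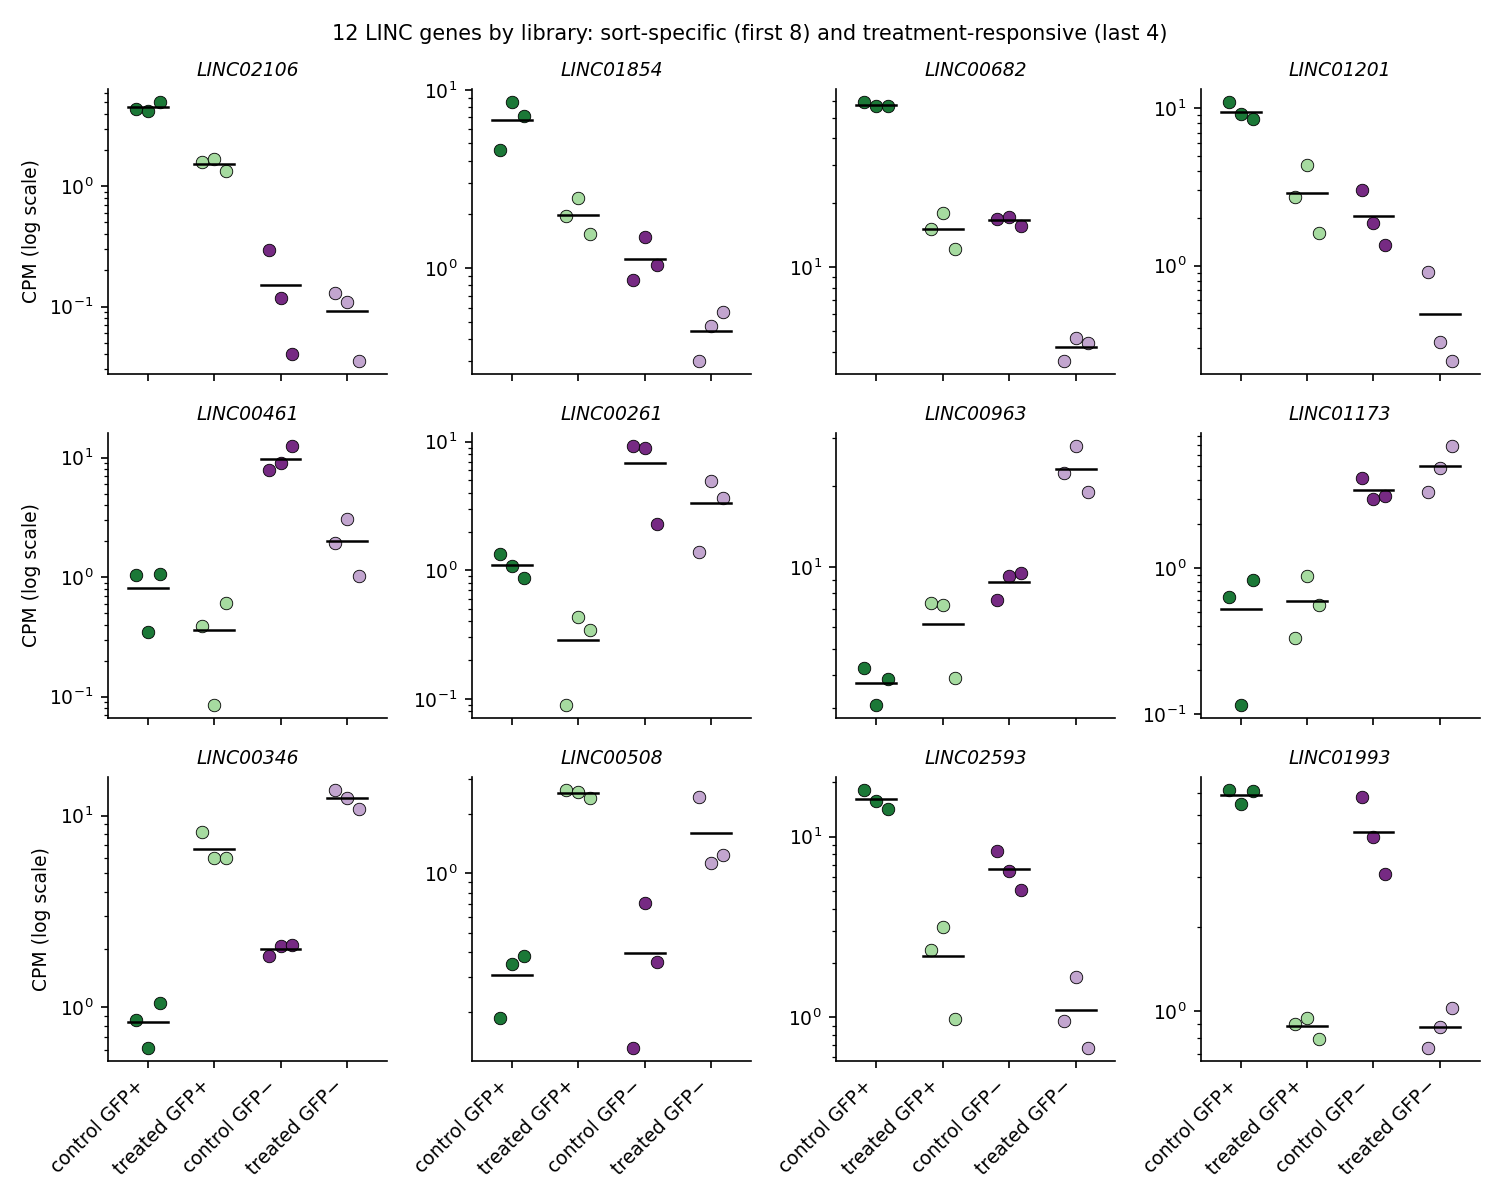
Level of 12 lincRNAs in each library (CPM, log scale; points are the 3 libraries of a group and bars are group means). LINC02106, LINC01854, LINC00682 and LINC01201 were higher in GFP-positive cells, LINC00461, LINC00261, LINC00963 and LINC01173 higher in GFP-negative cells, LINC00346 and LINC00508 rose with treatment, and LINC02593 and LINC01993 fell.

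The 6 members lower in GFP-positive cells under both conditions were LINC00461, LINC01173, LINC00261, LINC00472, LINC00963 and LINC01816. LINC00461 (chr5:88507546-88691057), the host transcript of MIR9-2, was at 7.88, 8.99 and 12.6 CPM in control GFP-negative and 1.04, 0.348 and 1.06 CPM in control GFP-positive libraries, a log2 fold change of -3.70 ± 0.42 (SE, adjusted p = 8.3e-05). In treated cultures the levels were 1.94, 3.05 and 1.03 CPM and 0.390, 0.0859 and 0.609 CPM (-2.43 ± 0.57, adjusted p = 0.0035). Every GFP-negative library lay above every GFP-positive one in each condition. LINC00472 (chr6:71187161-71420745), which holds MIR30A and MIR30C2, stood at 4.89, 6.70 and 7.28 CPM in control GFP-negative and 2.76, 1.77 and 3.30 CPM in control GFP-positive libraries (-1.38 ± 0.31, adjusted p = 0.0055).

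The mature microRNAs cut from these hosts are shown because their seeds (bases 2 to 8, in capitals) define the messages they can pair with. The miR-30a-5p and miR-30c-5p seeds are the same, and the miR-9 arms have seeds of their own. The microRNAs themselves were not measured in these libraries.
hsa-miR-9-5p (LINC00461): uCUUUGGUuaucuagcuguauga
hsa-miR-9-3p (LINC00461): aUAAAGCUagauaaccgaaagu
hsa-miR-30a-5p (LINC00472): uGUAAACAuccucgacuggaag
hsa-miR-30c-5p (LINC00472): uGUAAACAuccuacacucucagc

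LINC00261 (chr20:22547663-22578642), also known as DEANR1, lies 2.36 kb downstream of FOXA2, a factor of endoderm and floor plate. It was at 9.30, 8.93 and 2.28 CPM in control GFP-negative and 1.34, 1.07 and 0.864 CPM in control GFP-positive libraries (-2.74 ± 0.49, adjusted p = 0.0015). FOXA2 was likewise lower in GFP-positive cells, with a log2 fold change of -3.71 ± 0.31 (SE, adjusted p = 1.2e-05). LINC01173 stood at 4.17, 3.00 and 3.12 CPM in control GFP-negative against 0.634, 0.116 and 0.832 CPM in control GFP-positive libraries (-2.81 ± 0.55, adjusted p = 0.0025). For LINC00963 the levels were 7.56, 9.31 and 9.55 CPM and 4.25, 3.10 and 3.84 CPM (-1.35 ± 0.24, adjusted p = 0.0015). LINC01816, with the smallest difference of the 6 (-1.04 ± 0.30, adjusted p = 0.019), lost its call in control cultures without replicate 1 or 3 of the GFP-positive group (adjusted p = 0.068 and 0.075) or replicate 1 of the GFP-negative group (0.062).

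**Figure D2:**
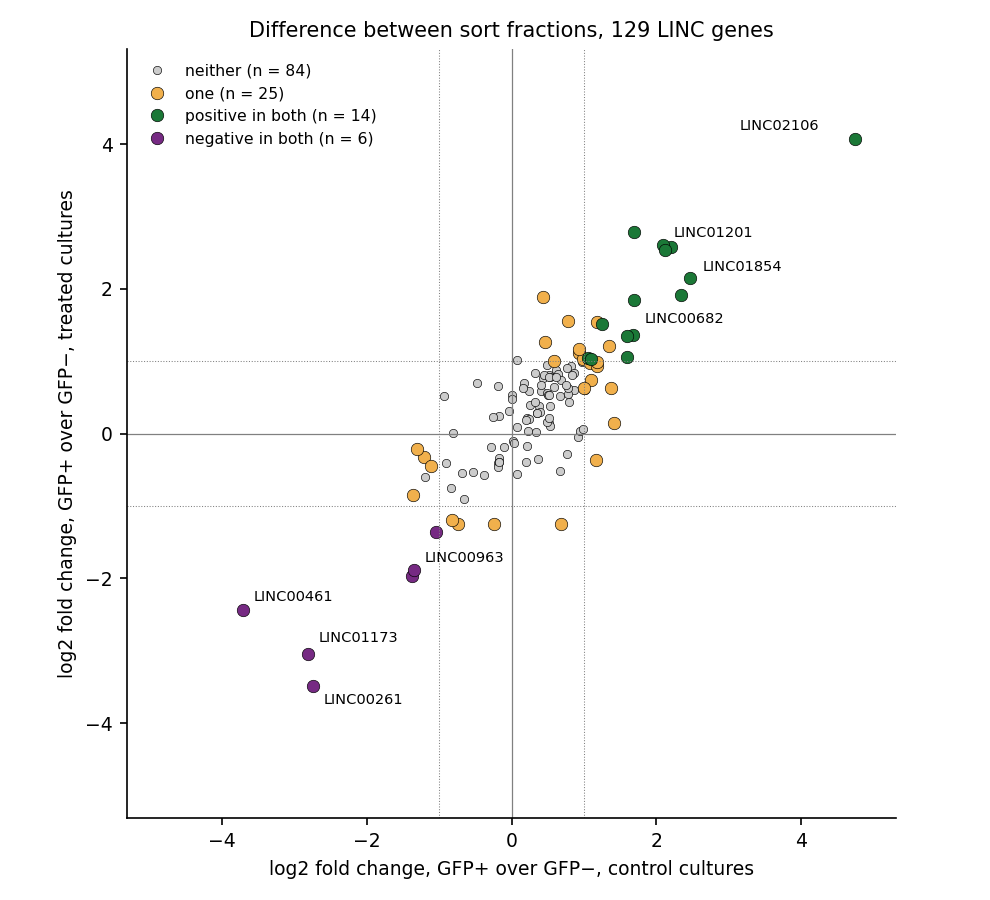
Log2 fold change of GFP-positive over GFP-negative cells in control cultures (horizontal) and treated cultures (vertical) for 129 lincRNAs, coloured by whether the call was made in both, in one or in neither condition, with dotted lines at a 2-fold difference. LINC02106 stands alone at the upper right (4.74 and 4.07), and LINC00461, LINC01173 and LINC00261 lie at the lower left.

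The second question was which lincRNAs respond to cis-chlordane. In GFP-positive cells 13 of 129 members rose and 24 fell, where 12.8% of all 15333 genes tested rose and 11.2% fell (12.2% and 10.7% of those with a mean of at least 1 CPM). Scaled by library size alone, 15 members rose and 22 fell, and 2315 genes rose and 1397 fell in all in place of 1959 and 1716. In GFP-negative cells 10 of 128 tested members rose and 21 fell, where 8.59% of all 15513 genes rose and 9.75% fell (8.81% and 9.6% of those with a mean of at least 1 CPM). Their median log2 fold change was -0.15 in GFP-positive and -0.02 in GFP-negative cells, against 0.03 and -0.01 over all genes tested. Across both fractions 5 members rose in each, 17 fell in each, 24 were called in a single fraction and 83 in neither. Of all 14855 genes tested in both fractions, 6.31% rose in each and 6.15% fell in each. No member was called in opposite directions. LINC02106 had too few counts to be tested in GFP-negative cells, so it stands among the 24 by its GFP-positive call alone. The number of rises moved with single libraries, to 8 without replicate 2 of the treated GFP-positive group and to 6 without replicate 1 or replicate 3 of the treated GFP-negative group. In GFP-negative cells there were 13 falls without replicate 2 of the control or without replicate 1 of the treated group. Of the calls made, 29 of 37 in GFP-positive cells and 15 of 31 in GFP-negative cells were kept in every such fit.

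LINC00346, now named PRECSIT (chr13:110863987-110870330, 8.21 kb from ANKRD10), had the largest rise of any member in GFP-negative cells. Its level went from 0.858, 0.608 and 1.06 CPM to 8.16, 6.01 and 6.01 CPM in GFP-positive cells, a log2 fold change of 3.07 ± 0.30 (SE, adjusted p = 2.2e-10). In GFP-negative cells it went from 1.84, 2.09 and 2.12 CPM to 13.7, 12.4 and 10.8 CPM (2.59 ± 0.25, adjusted p = 9.8e-05). Treated and control libraries did not overlap in either fraction. ANKRD10 itself rose by 1.17 ± 0.17 (SE, adjusted p = 9.0e-07) in GFP-positive cells. In control cultures LINC00346 was also lower in GFP-positive cells (-1.36 ± 0.35, adjusted p = 0.011), with an adjusted p of 0.050 without replicate 2 of the control GFP-positive group.

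LINC00508 (chr12:127933689-127983854) rose from 0.186, 0.348 and 0.384 CPM to 2.64, 2.58 and 2.38 CPM in GFP-positive cells (3.08 ± 0.40, adjusted p = 7.2e-08). In GFP-negative cells its levels were 0.131, 0.705 and 0.360 CPM in control and 2.42, 1.13 and 1.24 CPM in treated libraries (1.95 ± 0.59, adjusted p = 0.03), and the adjusted p was 0.051 without control replicate 1, 0.15 without treated replicate 1 and 0.070 without treated replicate 3. Its exons overlap those of LINC00507 on the other strand. LINC02525, an abundant transcript between the tubulin genes TUBB2A and TUBB2B, went from 13.3, 16.2 and 15.3 CPM to 34.5, 36.3 and 34.5 CPM in GFP-positive cells (1.30 ± 0.18, adjusted p = 3.6e-07). It went from 8.84, 8.34 and 9.95 CPM to 21.1, 20.1 and 20.9 CPM in GFP-negative cells (1.18 ± 0.18, adjusted p = 0.0013). Treated and control libraries of LINC02525 did not overlap in either fraction.

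The other members that rose in both fractions were LINC00622, at 1.71 ± 0.41 (SE, adjusted p = 7.1e-04) and 1.69 ± 0.42 (SE, adjusted p = 0.014), and LINC00237, at 1.21 ± 0.31 (SE, adjusted p = 0.0014) and 1.57 ± 0.41 (SE, adjusted p = 0.017). The LINC00622 call in GFP-negative cells was lost without treated replicate 3 (adjusted p = 0.057). All of the exonic bases of LINC00622 match another locus, so its reads cannot be assigned with confidence. The call of LINC00237 in GFP-positive cells was lost without replicate 2 of the treated group (log2 fold change 0.99), and in GFP-negative cells it was lost in 4 of 6 fits that left out a library, with an adjusted p of up to 0.068. LINC00888, a small nucleolar RNA host gene now named SNHG33, went from 30.1, 24.1 and 28.6 CPM to 61.7, 67.4 and 84.2 CPM in GFP-positive cells (1.43 ± 0.18, adjusted p = 3.3e-08), and its log2 fold change in GFP-negative cells was 0.95 ± 0.18 (SE, adjusted p = 0.003), below the 2-fold minimum. LINC01152 lies 79.7 kb from SOX9 and rose by 1.95 ± 0.41 (SE, adjusted p = 1.4e-04) in GFP-positive cells. It was not called in GFP-negative cells, but its log2 difference in response between fractions was only -0.14 ± 0.90 (SE, interaction test, adjusted p = 0.96). LINC02427 and LINC02449 rose in GFP-negative cells, by 2.32 ± 0.52 (SE, adjusted p = 0.0083) and 1.91 ± 0.35 (SE, adjusted p = 0.0029).

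LINC02593 (chr1:916865-921016, 2.91 kb from SAMD11) and LINC01993 (chr17:78261349-78278492) were among the members that fell most in both fractions. LINC02593 went from 18.2, 15.8 and 14.2 CPM to 2.37, 3.18 and 0.980 CPM in GFP-positive cells (-2.82 ± 0.28, adjusted p = 1.6e-10). In GFP-negative cells it went from 8.31, 6.46 and 5.08 CPM to 0.950, 1.67 and 0.673 CPM (-2.60 ± 0.40, adjusted p = 0.0011). The highest treated library was below the lowest control library each time. LINC01993 dropped from 6.19, 5.50 and 6.11 CPM to 0.900, 0.945 and 0.795 CPM (-2.68 ± 0.30, adjusted p = 2.2e-09) and from 5.81, 4.17 and 3.08 CPM to 0.734, 0.873 and 1.03 CPM (-2.32 ± 0.35, adjusted p = 0.0011). LINC00634, which current annotation lists as the coding gene SMIM45, fell from 8.13, 8.78 and 6.40 CPM to 0.720, 1.66 and 0.530 CPM in GFP-positive cells (-2.93 ± 0.32, adjusted p = 2.4e-09).

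LINC02202 (chr5:159100483-159117478) starts 567 bases from EBF1, a helix-loop-helix factor of differentiating neurons, on the opposite strand. It went from 3.62, 4.26 and 3.01 CPM to 0.390, 0.945 and 1.03 CPM in GFP-positive cells (-2.12 ± 0.35, adjusted p = 5.5e-06), and EBF1 also fell (-2.04 ± 0.18, adjusted p = 2.4e-11). In GFP-negative cells the lincRNA changed by -2.42 ± 0.58 (SE, adjusted p = 0.011), a call lost without replicate 1 of the treated group (adjusted p = 0.060). Between fractions of control cultures its log2 fold change of 1.18 ± 0.45 (SE, adjusted p = 0.058) missed the threshold, and with the culture as a replicate block it was 1.34 with an adjusted p of 0.023. LINC01521 (chr22:31346777-31348719) starts 431 bases from PATZ1, a zinc finger gene, and went from 23.3, 25.2 and 28.4 CPM to 6.54, 6.76 and 5.38 CPM in GFP-positive cells (-1.97 ± 0.20, adjusted p = 4.5e-10). Control and treated values of LINC01521 did not overlap in either fraction.

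LINC02381 (chr12:54126019-54147485) is the most abundant member per kb after LINC00674 and lies 70.0 kb from HOXC4, at the edge of the HOXC cluster that sets position along the spinal cord. It went from 136, 158 and 134 CPM to 49.2, 64.2 and 37.1 CPM in GFP-positive cells (-1.44 ± 0.18, adjusted p = 2.8e-08) and from 125, 118 and 99.8 CPM to 60.1, 63.6 and 47.9 CPM in GFP-negative cells (-1.02 ± 0.17, adjusted p = 0.0021). The second of these sat at the 2-fold minimum, and its log2 fold change was -0.95 without control replicate 1, -0.99 without control replicate 2 and -0.91 without treated replicate 3. HOXC4, chosen after its values were seen, fell by 1.40 and 1.19 on the log2 scale (adjusted p = 1.1e-08 and adjusted p = 7.3e-04). The remaining members that fell in both fractions were LINC00304, LINC00537, LINC00638, LINC00673, LINC01088, LINC01089, LINC01224 and LINC01341, together with LINC00682, LINC01201 and LINC01854. In GFP-negative cells the LINC01088 call was lost in 5 of 6 fits that left out a library (adjusted p up to 0.090), those without any but control replicate 3. The calls of LINC01854, LINC00304 and LINC00537 were each lost there in 4 of 6, without control replicate 2 or any treated replicate (up to 0.18, 0.10 and 0.087), and that of LINC00638 in 4, without control replicate 2 or 3 or treated replicate 1 or 2 (up to 0.16). LINC00673 came under 2-fold without control or treated replicate 1 (a log2 fold change as small as -0.96).

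**Figure D3:**
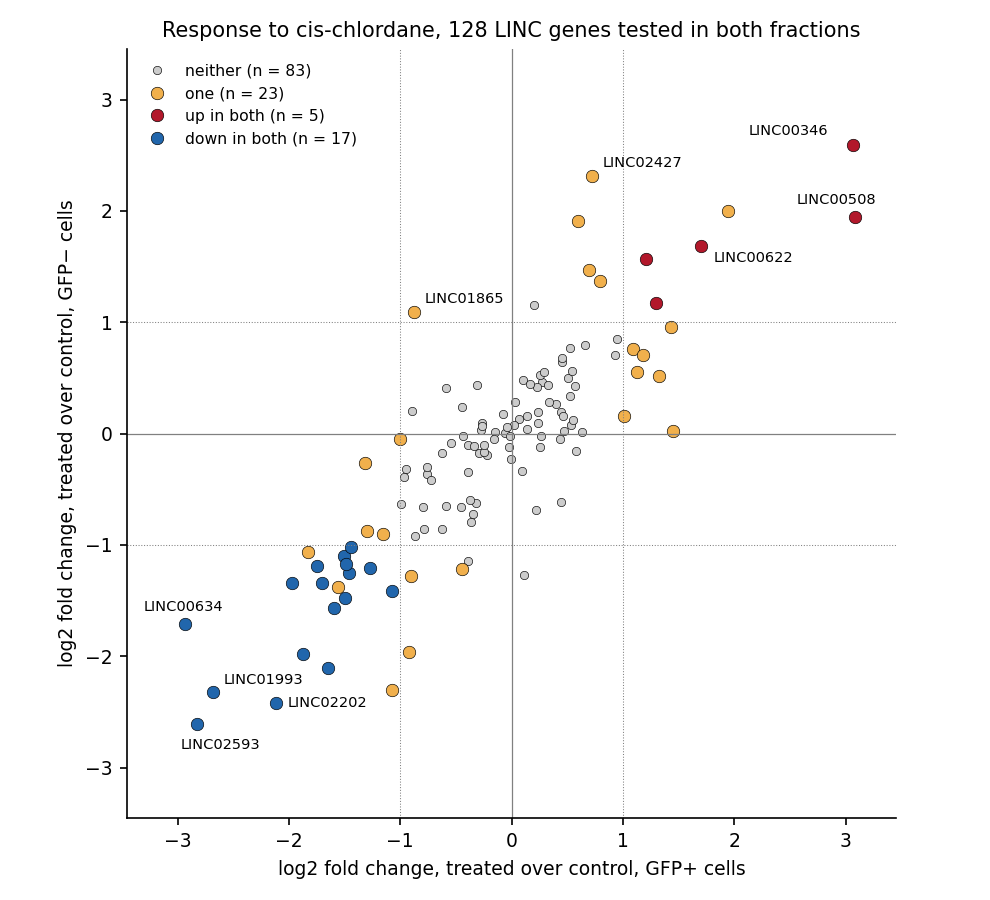
Log2 fold change of treated over control libraries in GFP-positive (horizontal) and GFP-negative cells (vertical) for the 128 lincRNAs tested in both, coloured by where the call was made, with dotted lines at a 2-fold change. LINC00346 and LINC00508 lie at the upper right, LINC02593, LINC01993 and LINC02202 at the lower left.

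Sort and treatment calls met in the same genes in several ways. Of the 14 members higher in GFP-positive cells under both conditions, 4 fell with treatment in both fractions (LINC00682, LINC01088, LINC01201 and LINC01854) and 1 (LINC00237) rose in both. A fall was called in a single fraction for 2, LINC02106 in GFP-positive and LINC00693 in GFP-negative cells, and 7 were not called for treatment. LINC02106 had too few counts for a test in GFP-negative cells, so its response there is unknown. The LINC00693 fall was lost without control replicate 2 or treated replicate 2 or 3 (adjusted p up to 0.083). Of the 6 members lower in GFP-positive cells, 3 were called for treatment in a single fraction and 3 in neither. Of all 14855 genes tested in both fractions, 6.31% rose in each and 6.15% fell in each. Treatment calls among all genes that differ between fractions were not counted. Whether these members fell more often than other genes higher in GFP-positive cells was therefore not tested. LINC00682 fell in GFP-positive (-1.88 ± 0.19, adjusted p = 2.0e-10) and in GFP-negative cells (-1.98 ± 0.22, adjusted p = 2.0e-04). LINC01201 changed by -1.65 ± 0.27 (SE, adjusted p = 5.5e-06) in GFP-positive and -2.11 ± 0.55 (SE, adjusted p = 0.016) in GFP-negative cells, the second with an adjusted p of 0.069 or 0.070 without treated replicate 2 or 3. LINC02106 fell in GFP-positive cells (-1.49 ± 0.29, adjusted p = 5.1e-05), as did its flanking gene ISL1 (log2 fold change -2.38, adjusted p = 6.0e-12). Among the GFP-negative genes, LINC00461 was called as falling in GFP-negative cells (-2.30 ± 0.40, adjusted p = 0.0022) and LINC00963 as rising there (1.37 ± 0.22, adjusted p = 0.0014). LINC00261 was called as falling in GFP-positive cells (-1.83 ± 0.49, adjusted p = 0.002). The interaction test called no difference in response between fractions for these genes. The log2 differences were 1.14 for LINC00461 (adjusted p = 0.49), -0.67 for LINC00963 (adjusted p = 0.36) and -0.86 for LINC00261 (adjusted p = 0.64).

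**Figure D4:**
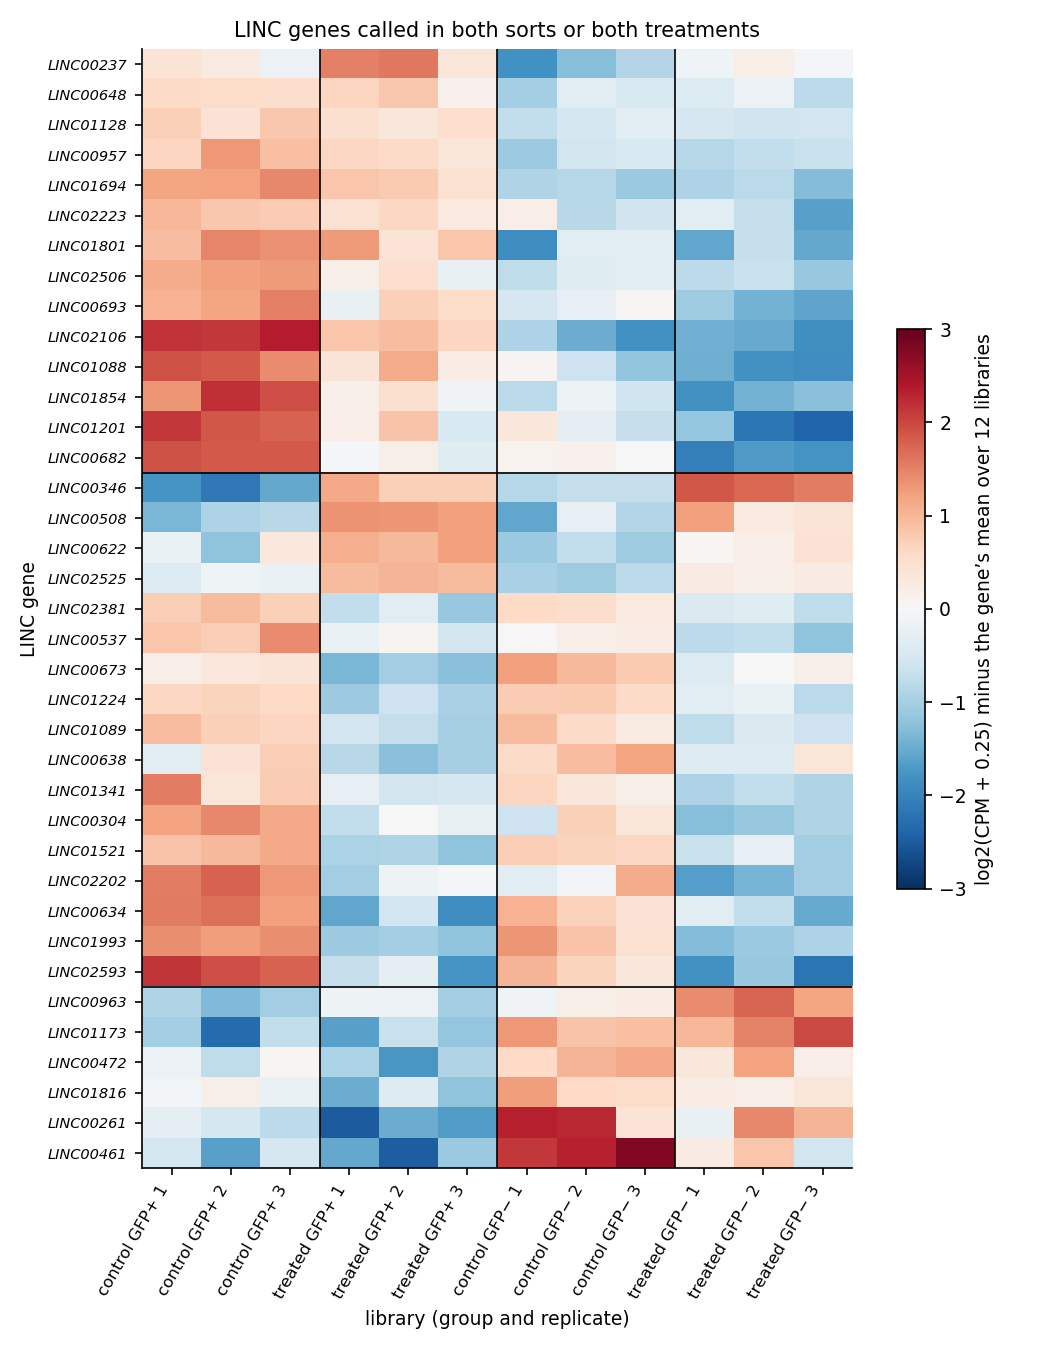
Log2(CPM + 0.25) minus each gene's mean over the 12 libraries for the 37 lincRNAs called in both sort comparisons or in both treatment comparisons, with libraries in columns and colours limited at 3 in each direction. The upper 14 rows are higher in GFP-positive cells, the lower 6 rows are higher in GFP-negative cells, and the 17 rows between them changed with treatment in both fractions.

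The third question was whether a response differed between the fractions, tested as an interaction over the 12 libraries. For 3 members the response was lower in GFP-positive cells (adjusted p under 0.05, with no fold minimum), and for 0 it was higher, where 1.22% and 0.968% of all 16226 genes tested were called (1.38% and 1.09% of those with a mean of at least 1 CPM). Scaled by library size alone, 0 members were called lower and 1 higher, and 84 genes lower and 266 higher in all in place of 198 and 157. At an unadjusted p under 0.05 there were 12 members, and the share of all genes at that cut was not counted. DESeq2 called 1 member higher and 3 lower, where 2.5% and 2.31% of all 16226 genes were. Sort fractions of a culture share its number and deviate together, and with the culture as a replicate block 1 member was called higher and 5 lower, where 3.2% and 4.59% of all 16226 genes were. The block kept the 3 calls and added LINC02609, LINC02427 and LINC02506.

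LINC01865 (29.1 kb from ALKAL2) went from 2.09, 2.40 and 4.16 CPM to 1.56, 1.32 and 1.62 CPM in GFP-positive cells (-0.88 ± 0.33, adjusted p = 0.024), and from 1.94, 1.91 and 1.16 CPM to 3.07, 4.04 and 3.79 CPM in GFP-negative cells (1.09 ± 0.32, adjusted p = 0.028). Treated libraries lay below control libraries in GFP-positive and above them in GFP-negative cells, and the log2 difference in response was -2.06 ± 0.47 (SE, adjusted p = 0.032), or -2.01 ± 0.47 (SE, adjusted p = 0.021) with the block. The rise in GFP-negative cells was itself lost in 5 of 6 fits that left out a library (adjusted p up to 0.092). LINC00869 went from 16.5, 16.5 and 13.5 CPM to 7.92, 8.62 and 7.39 CPM in GFP-positive cells and was at 8.94, 7.90 and 8.51 CPM in control and 9.63, 11.1 and 8.92 CPM in treated GFP-negative libraries, a difference of -1.18 ± 0.25 (SE, adjusted p = 0.022). LINC00623 showed a difference of -1.09 ± 0.27 (SE, adjusted p = 0.048), its level being 30.5, 28.7 and 24.0 CPM and 17.3, 18.8 and 16.6 CPM in GFP-positive and 17.3, 12.5 and 11.2 CPM and 20.6, 19.3 and 15.4 CPM in GFP-negative cells. LINC00869 and LINC00623 lie in duplicated sequence of chromosome 1, with 93.9% and 100% of their bases matched elsewhere, and their counts are uncertain. Leaving out 1 library at a time lost the LINC01865 call in 9 of 12 fits (adjusted p up to 0.11), the LINC00869 call in 7 (up to 0.11) and the LINC00623 call in 11 (up to 0.20).

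The 3 members added by the block did not pass without it. LINC02609 was at 2.54, 2.87 and 2.18 CPM and 6.18, 6.79 and 6.78 CPM in control and treated GFP-positive and 6.24, 4.52 and 2.80 CPM and 4.36, 4.73 and 4.92 CPM in control and treated GFP-negative libraries, a difference of 1.34 ± 0.38 (SE, adjusted p = 0.088), or 1.28 ± 0.32 (SE, adjusted p = 0.027) with the block. LINC02427 had -1.67 ± 0.61 (SE, adjusted p = 0.18), or -1.61 ± 0.43 (SE, adjusted p = 0.038) with the block. LINC02506 had -0.66 ± 0.29 (SE, adjusted p = 0.26), or -0.69 ± 0.19 (SE, adjusted p = 0.04) with the block.

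Of 9 LINC genes with a recorded role that were on a list and in the table, 4 were members: LINC00461, LINC00599, LINC00632 and LINC00467. LINC00599, the host of MIR124-1 and so of a microRNA of differentiated neurons, stood at 67.9, 55.6 and 58.1 CPM in control GFP-positive, 38.6, 26.7 and 27.3 in treated GFP-positive, 31.5, 38.2 and 42.8 in control GFP-negative and 17.8, 14.1 and 15.1 CPM in treated GFP-negative libraries. It fell in GFP-negative cells (-1.28 ± 0.19, adjusted p = 0.001), and in GFP-positive cells its log2 fold change was -0.91 ± 0.18 (SE, adjusted p = 8.2e-05). Between fractions of treated cultures its log2 fold change of 1.00 ± 0.19 (SE, adjusted p = 0.001) sat at the 2-fold minimum, and it was 0.99 with the culture as a replicate block. It was 0.79 without treated GFP-positive replicate 1, 0.94 without treated GFP-negative replicate 2 and 0.96 without treated GFP-negative replicate 3. LINC00632, the precursor of the circular RNA CDR1-AS that binds miR-7, was not called in any comparison, with log2 fold changes of 0.95 ± 0.24 (SE, adjusted p = 0.0011) in GFP-positive and 0.85 ± 0.41 (SE, adjusted p = 0.14) in GFP-negative cells. LINC00467 rose in GFP-positive cells by 1.01 ± 0.29 (SE, adjusted p = 0.004), a call lost without control replicate 2 or 3 or treated replicate 2 (log2 fold changes of 0.75, 0.99 and 0.80).

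LINC01578, also called CHASERR and known as a cis-acting brake on the chromatin remodeller gene CHD2, was among the most abundant members. Its level was 68.9, 52.4 and 63.0 CPM in control and 72.3, 84.4 and 96.9 CPM in treated GFP-positive libraries (0.53 ± 0.17, adjusted p = 0.01). The difference was below the 2-fold minimum, and the groups did not overlap. The log2 fold change of CHD2 was 0.89 ± 0.17 (SE, adjusted p = 4.1e-05), also under the minimum. The exons of the lincRNA overlap those of CHD2 on the same strand, so the counts of the pair are not independent. LINC00641 was at 79.8, 66.4 and 95.1 CPM in control and 109, 102 and 132 CPM in treated GFP-positive libraries (0.58 ± 0.17, adjusted p = 0.0046), and in treated cultures it was higher in GFP-positive cells (1.56 ± 0.15, adjusted p = 5.5e-06).

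The nearest protein-coding gene was compared with each member. Across the 100 pairs tested in both partners, the Pearson correlation of log2 fold changes was 0.30 for treatment in GFP-positive cells and 0.26 for the sort fractions of control cultures, with Spearman correlations of 0.23 and 0.22. For the 12 divergent pairs the Pearson correlation was 0.24 and 0.81 and the Spearman correlation 0.18 and 0.41. Between sort fractions of control cultures the Pearson correlation was -0.07 over 15 overlapping and 0.16 over 66 intergenic pairs. For treatment in GFP-negative cells the Pearson correlation was 0.13 and the Spearman correlation 0.07 over 98 pairs. For the sort fractions of treated cultures they were 0.30 and 0.18 over 99 pairs. These are descriptions across genes that share libraries, and a divergent pair may share reads at its start. Of the 30 called members with a tested neighbour in GFP-positive cells, the neighbour was called in the same direction for 12 and in the opposite direction for 4. In GFP-negative cells there were 25 such members. Their neighbours had the same sign for 13, and were called in the same direction for 6 and in the opposite one for 2. For the sort fractions of control cultures the neighbour of 6 of 26 called members was called in the same direction and that of 0 in the opposite one. Of all genes tested, 12.8% rose and 11.2% fell with treatment in GFP-positive cells, and 8.59% and 9.75% in GFP-negative cells. Between fractions of control cultures 7.47% were higher and 15.3% lower. Neighbours of uncalled members were not counted, so whether the pairs share calls more often than other genes was not tested. Among the pairs that fell together with treatment in GFP-positive cells were LINC02593 with SAMD11 (-1.42 ± 0.18, adjusted p = 5.0e-08), LINC02202 with EBF1, LINC01521 with PATZ1 (-1.16 ± 0.16, adjusted p = 1.6e-07), LINC01201 with ARHGAP36 (-1.06 ± 0.19, adjusted p = 2.1e-05) and LINC00261 with FOXA2 (-1.79 ± 0.40, adjusted p = 3.1e-04). LINC00237 and KIZ, a centrosome gene, rose together (2.36 ± 0.21, adjusted p = 1.1e-11). LINC01088 went the other way from PAQR3, which starts 47 bases away and rose by 2.46 on the log2 scale (adjusted p = 1.0e-13) while the lincRNA changed by -1.08 ± 0.23 (SE, adjusted p = 1.9e-04). Leaving out control replicate 1 brought that fall under 2-fold (-0.98), as did leaving out treated replicate 1 (-0.97) or 3 (-0.90).

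**Figure D5:**
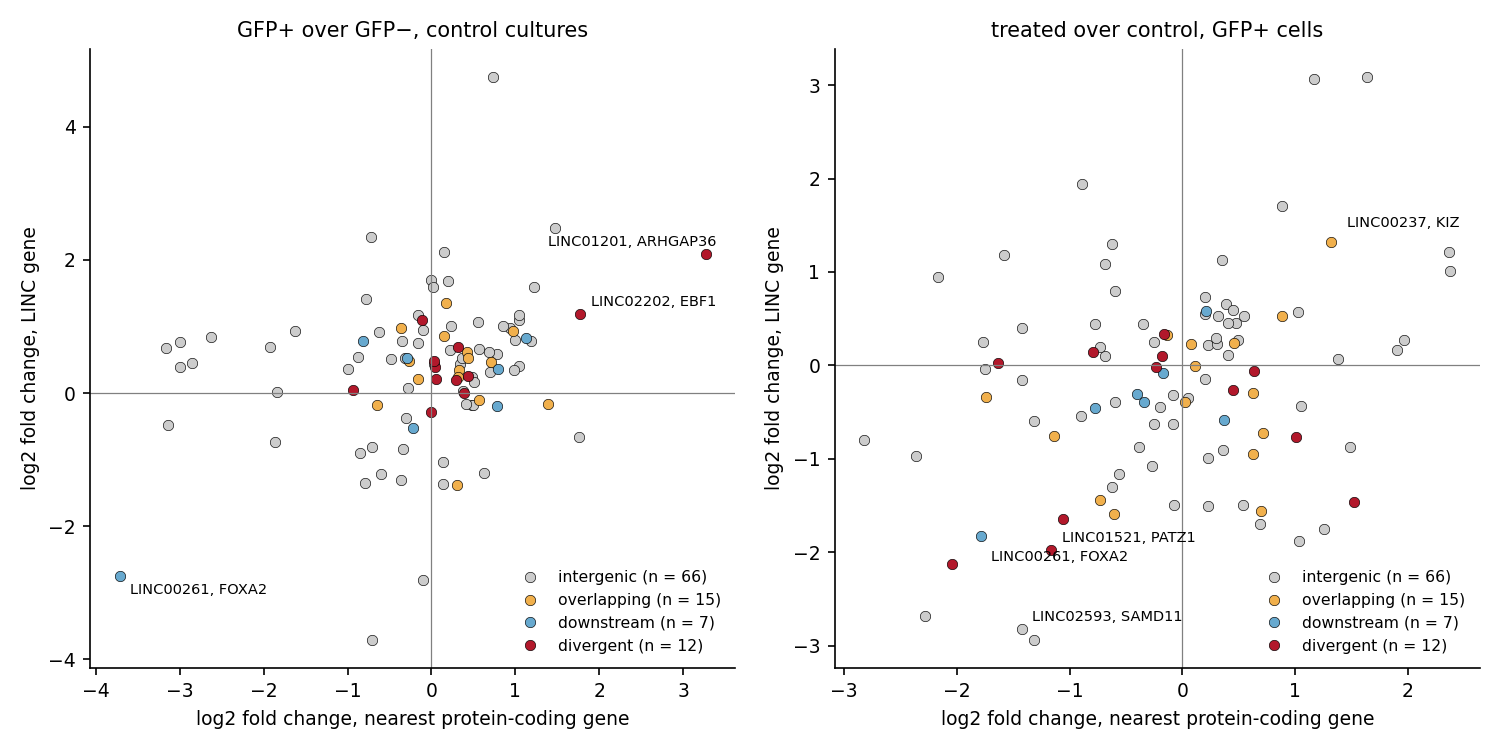
Log2 fold change of each lincRNA against that of its nearest protein-coding gene, between sort fractions of control cultures (left) and with treatment in GFP-positive cells (right), coloured by the position of the pair. LINC00261 with FOXA2 and LINC01201 with ARHGAP36 lie at opposite ends of the left panel.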

How the data were processed

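RNA was taken from 12 sorted samples of 1 human embryonic stem cell line differentiated to motor neurons. Poly(A) libraries from a stranded kit were sequenced, and the authors mapped the reads with HISAT2 to hg38 and counted them per gene with featureCounts. The versions of those tools, and whether counting used strand, are not given in the sources used here. The deposited values are raw counts per gene symbol, not normalized, with library totals of 23414935 to 38347050. The table had 0 sample columns left unused.

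Each comparison was fitted over the 6 libraries it concerns, and the interaction over all 12, with edgeR 4.0.16 (R 4.3.3): TMM scaling, filterByExpr with a minimum count of 10 and total of 15, and the quasi-likelihood test, with p-values adjusted by Benjamini-Hochberg across every gene tested. Genes were called at an adjusted p below 0.05 together with a change of at least 2-fold, and at the adjusted p alone for the interaction. Standard errors were the log2 fold change divided by the square root of F. P-values measure the spread between cultures of 1 line, and an exact permutation test of 3 against 3 libraries cannot go below 0.1. The fitting steps were tested on simulated data. Genes were placed with GENCODE 44 and RefSeq, near copies were sought with minimap2 2.31, and figures were drawn with matplotlib 3.10.9 under Python 3.11.15 (pandas 2.3.3).

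The genes given with values were, by rule, the 8 called members with the largest log2 fold change in each direction of each pairwise comparison whose groups did not overlap, up to 8 interaction calls, the 8 members highest per kb, the 3 on each side of the threshold, members with a recorded role, their nearest protein-coding genes, ISL1, and at most 4 called genes of each list with the largest change. Flanking genes other than the nearest, PAQR3, NEAT1 and members named only within a class were added after their values were seen. The members and lists were chosen with earlier results of these data known. Sort fractions of a culture carry the same replicate number, and their deviations from group means correlated at 0.456, 0.154 and 0.418 in control and 0.242, 0.263 and 0.536 in treated cultures over 13817 genes, so every pair passed the 0.1 that was asked for pairing. The reported fits between fractions and for the interaction carry no block, and the fits with the culture as a block are alternatives. Members whose call they change are named, with values for some of them. Control and treated samples did not pass for every pair (-0.07, 0.21 and 0.25 in GFP-positive, -0.02, 0.34 and -0.05 in GFP-negative cells). Alternatives were DESeq2 1.42.0, library size alone, no filter, a minimum of 10 counts in every library, a fit over all 12 libraries, a test against the fold minimum (glmTreat), a replicate block, other member rules and leaving out each library.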

Additional observations from a re-analysis of the deposited data

Results flagged for a closer look

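The response to cis-chlordane differed between sort fractions for 6 members, by the interaction test either without or with the culture as a replicate block. Without the block the log2 difference, GFP-positive minus GFP-negative, was -1.09 for LINC00623, -1.18 for LINC00869 and -2.06 for LINC01865. For the members called with the block only it was -1.67 for LINC02427, -0.66 for LINC02506 and 1.34 for LINC02609. Of all 16226 genes tested, 0.968% were called higher and 1.22% lower without the block, and 3.2% and 4.59% with it. DESeq2 called the first 3 and LINC02609, and 2.5% of all genes higher and 2.31% lower. Scaled by library size alone none of the first 3 was called, and leaving out 1 library at a time lost the LINC01865 call in 9, the LINC00869 call in 7 and the LINC00623 call in 11 of 12 fits. LINC00623 and LINC00869 have 100% and 93.9% of their bases matched elsewhere in the genome, and the part of those copies in the difference was not tested. No group held more than 3 libraries, so single outlying libraries were not sought.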

How the results depend on the processing

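No called member changed sign in any fit that tested it, but the balance of the interaction calls turned from 0 higher and 3 lower to 1 and 0 with library size alone. Tested against the fold minimum (glmTreat), 7 members were higher and 3 lower in GFP-positive cells of control cultures, 9 and 5 of treated cultures, 1 rose and 4 fell in GFP-negative cells, and 4 rose and 13 fell in GFP-positive cells. Of all genes, glmTreat called 1.92% and 9.14%, 2.53% and 7.59%, 2.88% and 2.36%, and 6% and 4.75%, in the same order. With at least 10 counts in every library, 14 members were higher in GFP-positive cells of treated cultures, where 9.31% of all genes were. The interaction then gave 1 higher and 1 lower, against 1.74% and 0.785% of all genes. A rule of 0.5 CPM took 190 members and gave 36 higher and 19 lower between fractions of treated cultures. It also gave 20 lower in control cultures and 21 rises in GFP-positive cells. A rule of 2 CPM took 97 members and gave 7 rises there. These rules change the members alone, so the shares of all genes stay at 10%, 13.7%, 15.3% and 12.8% for these 4 counts in turn. For the interaction, DESeq2 gave 1 higher, where 2.5% of all genes were. The culture as a replicate block gave 1 higher and 5 lower, where 3.2% and 4.59% of all genes were. The cause of these shifts was not tested beyond the change in stringency or members that each setting makes.

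Leaving out 1 library at a time gave 17 to 29 members higher and 7 to 14 lower between fractions of control cultures, and 18 to 25 and 9 to 10 of treated cultures. Of all genes, 6.18 to 10.3% and 13.6 to 15.9% were called in control cultures, and 8.07 to 10.6% and 13.3 to 14.5% in treated cultures. The same fits gave 6 to 12 rises and 13 to 22 falls in GFP-negative cells, and 8 to 14 and 25 to 28 in GFP-positive cells. Of all genes, 6.58 to 10.2% rose and 7.05 to 10.3% fell in GFP-negative cells, and 11.4 to 13.4% and 9.91 to 12.3% in GFP-positive cells. For the interaction 0 to 1 members were higher and 0 to 3 lower, against 0.411 to 1.28% and 0.283 to 1.22% of all genes. By the rule there were 126 to 130 members. Control and treated samples share numbers, but in each fraction at least 1 same-numbered pair did not deviate together. Under that replicate block 14 members rose and 26 fell in GFP-positive cells, where 12.7% and 11.1% of all genes did. In GFP-negative cells 10 rose and 20 fell, where 8.3% and 9.06% of all genes did. The adjusted p was then 0.064 for LINC00508 and 0.059 for LINC01854 in GFP-negative cells. With fractions blocked by culture, 26 members were higher and 11 lower in control cultures, where 8.19% and 15.4% of all genes were. In treated cultures 24 were higher and 10 lower, where 10.4% and 14% of all genes were. Depth limits LINC02106, whose GFP-negative values rest on 14 and 7 counts.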

Other observations

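Of 30 other long noncoding RNAs known by a name of their own, 24 were tested in GFP-positive cells, where 5 rose with cis-chlordane and 3 fell. Of all genes tested there, 12.8% rose and 11.2% fell. The largest changes were those of RMST, a transcript of neural differentiation (-2.57 ± 0.30, adjusted p = 7.0e-09 on the log2 scale, ± SE), LINC-PINT (2.14 ± 0.31, adjusted p = 3.9e-07), CYTOR (1.91 ± 0.22, adjusted p = 4.8e-09) and the hypoxia transcript MIR210HG (-1.81 ± 0.40, adjusted p = 2.8e-04). In GFP-negative cells RMST also fell (-2.07 ± 0.27, adjusted p = 5.2e-04) and LINC-PINT also rose (2.35 ± 0.32, adjusted p = 6.5e-04). NEAT1, the scaffold of nuclear paraspeckles and chosen after its values were seen, rose in GFP-positive (1.29 ± 0.19, adjusted p = 5.4e-07) and GFP-negative cells (1.39 ± 0.33, adjusted p = 0.01). Between fractions of control cultures 5 of 25 tested were lower in GFP-positive cells, where 15.3% of all genes tested were. They were led by SOX1-OT (-4.03 ± 0.57, adjusted p = 3.7e-04), SOX2-OT (-3.49 ± 0.27, adjusted p = 6.8e-06) and PANTR1 (-3.35 ± 0.30, adjusted p = 2.0e-05).

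Among 20 microRNA host transcripts, 11 were tested in GFP-positive cells, where 2 rose and 4 fell, against 12.8% and 11.2% of all genes tested. MIR9-3HG, a second miR-9 host beside LINC00461, fell in GFP-positive (-3.68 ± 0.49, adjusted p = 9.6e-08) and GFP-negative cells (-4.69 ± 0.26, adjusted p = 8.7e-06) and was lower in GFP-positive cells of control cultures (-3.50 ± 0.21, adjusted p = 1.5e-06). MIR4435-2HG and MIR17HG rose in GFP-positive cells (2.71 ± 0.20, adjusted p = 2.5e-13 and 1.83 ± 0.40, adjusted p = 2.6e-04). MIR4435-2HG and CYTOR are near copies of each other, so their counts are uncertain. Markers of interneurons were lower in GFP-positive cells of control cultures for 8 of 8 tested, summing to 17.1 to 21.8 CPM there and 67.2 to 81.7 CPM in GFP-negative libraries, and to 2.54 to 6.90 and 20.5 to 83.4 CPM after treatment. Mesenchymal or fibroblast markers summed to 260.3 to 326 CPM and 760.0 to 885 CPM in control and 50.2 to 82.0 and 467 to 761 CPM in treated libraries, with 3 of 5 tested lower in GFP-positive cells of control cultures. Endothelial markers summed to 1.56 to 2.37 and 10.9 to 28.3 CPM in control and 7.45 to 9.87 and 87.0 to 128 CPM in treated libraries. The sum does not speak for each marker. Of 2 tested in GFP-positive cells 1 rose with treatment and 1 fell, and of 3 tested in GFP-negative cells 1 rose and 0 fell. Of the 5 pluripotency markers POU5F1, NANOG and TDGF1 were at 0 in both control groups, while LIN28A averaged 155 and 184 CPM and DPPA4 6.80 and 54.0 CPM in control GFP-positive and GFP-negative libraries. The part of these markers in the lincRNA differences was not tested.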
